A study of Mus musculus with 16 samples.

Results

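The transcription factors of fat cell formation were followed in the inguinal (groin) subcutaneous fat pad of mice on a high-fat or a control diet, with or without an antibody that binds PDGFcc, a ligand of the platelet-derived growth factor family. The 10 genes (Pparg, Cebpa, Cebpb, Cebpd, Klf15, Zfp467, Zfp423, Ebf1, Ebf2 and Stat5a) were picked by symbol from the 16091 genes of the deposited table, and all 10 were among the 14189 genes expressed highly enough to be tested. All mice were C57BL6/J and are listed with an age of 6 weeks, in the untreated groups too. The 4 groups were high-fat diet with antibody, high-fat diet untreated, control diet with antibody and control diet untreated, with 4 libraries each. Treated mice received antibody AF1447 into the peritoneum at 50 mg/kg in 100 µl every 2 days for 2 weeks, starting at 6 weeks of age. The sources used here do not give the length of the diets, any injection of untreated mice or the hour at which tissue was taken. Values are normalized counts on the scale the authors deposited, and the read depth behind them is unknown.

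Fat cells arise from progenitors in the stroma of the fat pad through a cascade of transcription factors. C/EBPβ and C/EBPδ, leucine zipper proteins encoded by Cebpb and Cebpd, act early and help to switch on the nuclear receptor PPARγ (Pparg) and C/EBPα (Cebpa), which sustain each other and the lipid-storing state of the mature cell. Around this core act KLF15 and STAT5A, which promote differentiation, ZFP467, which favours fat over bone cell fate in marrow stroma, and the lineage factors ZFP423, EBF1 and EBF2, of which EBF2 is tied to brown and beige fat and ZFP423 restrains that programme in white fat cells.

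The promoters of Klf15 and Zfp467 are shown because these genes passed the antibody test described below, and that of start 3 of Pparg (of 3 listed) because it carries letters of the C/EBP motif, the factor family that precedes it in the cascade. RefSeq promoters of 300 bases (250 before and 50 from the start, GRCm38.p6) were at hand for 8 of the 10 genes, with none matched for Cebpd and Ebf2. Capitals mark the E-box CACGTG in Klf15 (chr6:90462326-90462625, plus strand), the GC box GGGCGG and the EBF-type letters CCCNNGGG in Zfp467 (chr6:48445041-48445340, minus strand) and the C/EBP-type letters TTGCNNAA in Pparg (chr6:115421816-115422115, plus strand). Both strands were searched, and each sequence reads 5′ to 3′ on the strand of its gene.
Klf15: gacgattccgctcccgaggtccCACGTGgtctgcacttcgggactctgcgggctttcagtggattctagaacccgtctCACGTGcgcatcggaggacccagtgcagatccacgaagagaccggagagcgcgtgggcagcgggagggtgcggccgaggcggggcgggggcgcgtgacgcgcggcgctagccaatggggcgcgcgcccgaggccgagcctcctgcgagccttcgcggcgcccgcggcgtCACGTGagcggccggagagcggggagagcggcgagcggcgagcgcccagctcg
Zfp467: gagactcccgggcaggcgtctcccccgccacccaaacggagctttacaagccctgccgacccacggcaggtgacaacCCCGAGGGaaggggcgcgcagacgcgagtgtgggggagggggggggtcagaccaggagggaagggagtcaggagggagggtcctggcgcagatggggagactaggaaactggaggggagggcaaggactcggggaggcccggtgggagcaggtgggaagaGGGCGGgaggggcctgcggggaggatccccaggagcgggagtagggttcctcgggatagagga
Pparg, start 3: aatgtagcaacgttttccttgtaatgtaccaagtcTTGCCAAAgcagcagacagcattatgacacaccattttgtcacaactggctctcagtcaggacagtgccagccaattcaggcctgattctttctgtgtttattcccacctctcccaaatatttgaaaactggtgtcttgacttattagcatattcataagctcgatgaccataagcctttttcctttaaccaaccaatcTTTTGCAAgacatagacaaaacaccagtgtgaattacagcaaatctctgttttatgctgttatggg

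The Klf15 window held 3 E-boxes, which began at -228, -172 and -3, counted with the start base as 1 and no 0. Of 32851 mouse promoters of this length 0.0883% held at least 3 and 7.15% at least 1 (9.59% of those of tested genes), and none of the other promoters of these genes held any. The Klf15 window was also rich in G and C, at 73.3% with 47 CpG, where the medians of all promoters were 52.7% and 7. Among the promoters of these genes it was not the richest, with Cebpb at 80.7% (50 CpG) and the first of Pparg at 80.3% (44 CpG). The lowest was the first of Ebf1 at 36.7% (9 CpG). In the Zfp467 window the GC box lay at -13 and the CCCNNGGG letters at -173, motifs found in 35.7% and 13.7% of all promoters and in 60.2% and 18% of the promoters of tested genes. Start 3 of Pparg had C/EBP-type letters at -215 and -16, and the first promoter of Zfp423 had them at -131 and 23. At least 2 such matches stood in 0.773% and at least 1 in 10.8% of all promoters (8.78% of those of tested genes). These are matches of letters picked from several motifs searched, so their shares are a description and no test. No binding was measured.

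Per kb of exon, the 10 genes spanned a wide range of levels (per-length plot), and their order was led by the core pair. Cebpa stood highest at a mean of 6395 normalized counts per kb over 16 libraries (range 4664 to 7669), followed by Pparg at 2295 (1177 to 3163) and Klf15 at 880.7 (529.3 to 1195). Cebpa exceeded Pparg, Pparg exceeded Klf15 and Klf15 exceeded Ebf1 in 16 of 16 libraries. The next 6 genes, Ebf1 at 396.8, Cebpb at 333, Stat5a at 309.2, Zfp467 at 290, Ebf2 at 239.2 and Zfp423 at 214.8 per kb, were not separated from their neighbours beyond the spread. In that stretch the gene with the higher mean was above the next in 7 to 11 of 16 libraries. Cebpd was lowest at 87.57 per kb (30.29 to 163.7), below Zfp423 in 16 of 16 libraries. Exons of Cebpb share 20.7% of their length with Tmem189 on the opposite strand and those of Cebpd share 15% with Spidr. Since the sources used here do not say whether reads were counted by strand, the levels of Cebpb and Cebpd are uncertain to that extent. The shares were 6.12% for Ebf2, 1.93% for Cebpa and 1.01% for Stat5a.

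**Figure D1:**
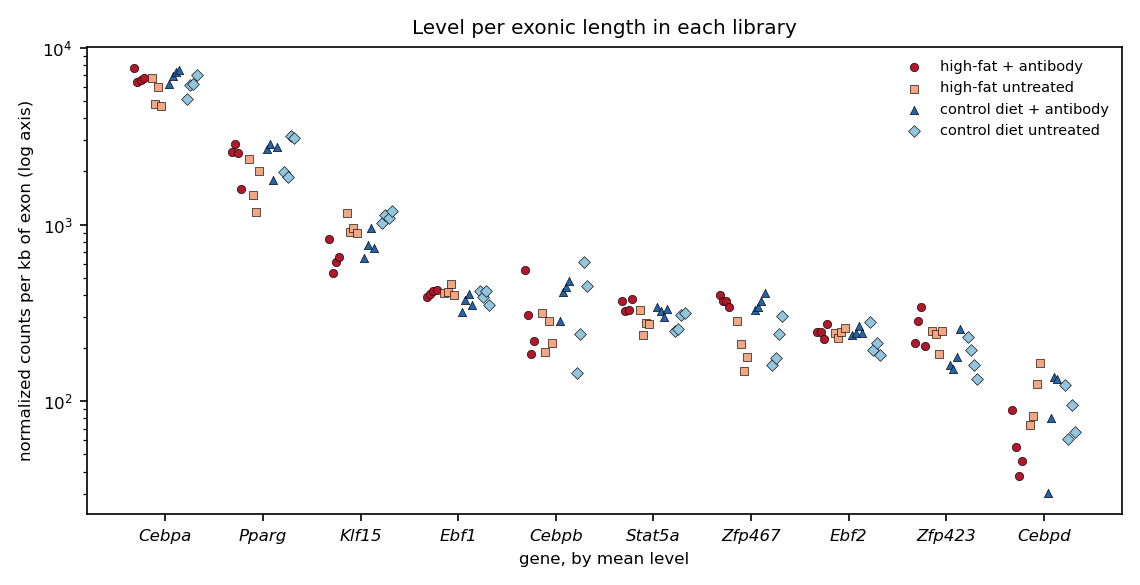
Normalized counts per kb of exon (log axis) of each transcription factor, 1 point per library, coloured by group and ordered by mean level. Cebpa, Pparg and Klf15 separate from the rest in 16 of 16 libraries, the middle 6 overlap, and Cebpd is lowest at 30.29 to 163.7 per kb.

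Between the antibody and untreated libraries, 2 of the 10 genes passed the threshold (limma, Benjamini-Hochberg adjusted p under 0.05 over all tested genes) when the antibody effect was averaged over both diets: Zfp467 was higher and Klf15 lower. Over all genes tested 358 passed that comparison, which is 2.52%. Within each diet none of the 10 passed, against 0.0775% of all genes on the high-fat diet (11 genes) and 0.0987% on the control diet (14 genes). At an unadjusted p under 0.05 the counts were 5 of the 10 on the high-fat diet and 2 on the control diet, where 13.5% and 11.6% of all genes did so. The median log2 antibody effect over both diets was 0.17 for the 10 genes, 7 of them higher and 3 lower, and -0.01 for all genes tested. No label states that each library is its own animal. The p-values therefore refer to the spread among libraries, part of which may be technical. In a whole fat pad, fewer cells of a type and less RNA per cell cannot be told apart.

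**Figure D2:**
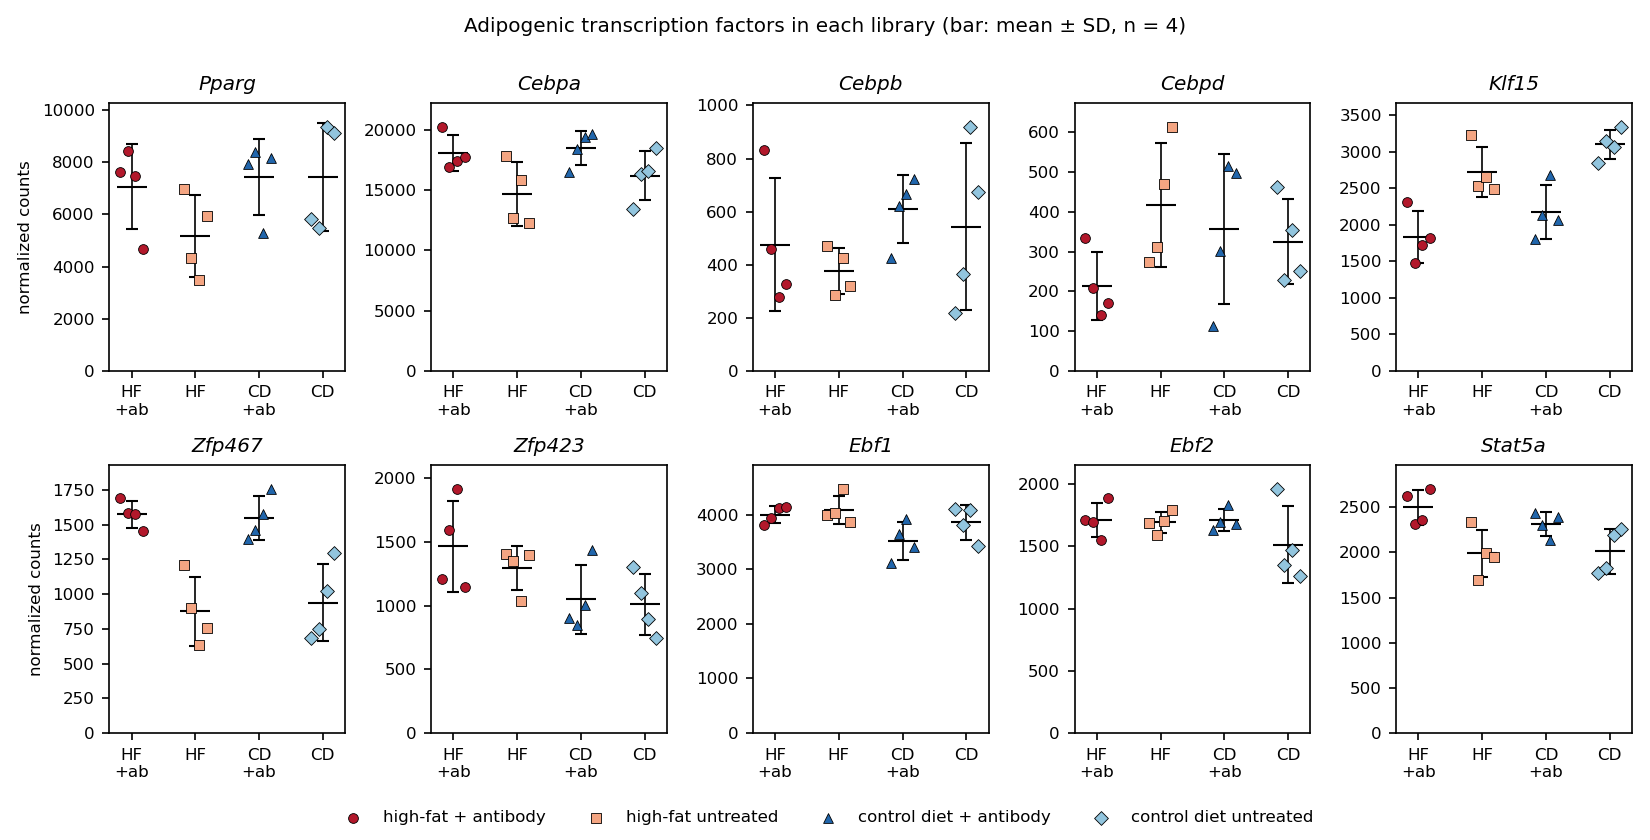
Normalized counts of each transcription factor in every library of the 4 groups, with the group mean ± SD (n = 4). Zfp467 is at 1396 to 1754 in the 8 antibody libraries, all above the untreated ones at 633.7 to 1294, and Klf15 is lower with antibody on each diet.

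Zfp467, a zinc finger protein known from marrow stromal cells to favour fat over bone fate, rose with the antibody. The gene lies on chromosome 6 (48427697 to 48445825, minus strand, GRCm38). Its levels were 1691, 1581, 1577 and 1453 normalized counts in the high-fat antibody libraries, against 1211, 902, 634 and 757 in the high-fat untreated libraries. On the control diet the antibody libraries had 1396, 1459, 1573 and 1754 and the untreated libraries 686, 751, 1024 and 1294. Each of the 8 antibody libraries was thus above each of the 8 untreated ones, a separation that 0.444% of all genes showed in either direction. The groups averaged 1576 ± 97.4 with antibody and 876 ± 249 untreated on the high-fat diet, and 1545 ± 157 with antibody and 939 ± 279 untreated on the control diet (SD, n = 4 each). The antibody libraries varied less, with a coefficient of variation of 6.18% and 10.2%, than the untreated ones at 28.4% and 29.7%. That difference in spread was not tested. Averaged over both diets the rise was 0.82 ± 0.14 on the log2 scale (SE; 1.77-fold; adjusted p = 0.00756, limma). Within the diets the log2 difference was 0.89 ± 0.19 on the high-fat diet (adjusted p = 0.0769) and 0.76 ± 0.19 on the control diet (adjusted p = 0.137). On either diet the antibody libraries stood wholly above the untreated ones. Antibody and untreated libraries were separated, in either direction, for 7.38% of all genes on the high-fat diet and 6.77% on the control diet. Diet moved Zfp467 by less than its error, at -0.03 ± 0.14 over both antibody states (adjusted p = 0.885).

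Klf15, a Krüppel-like zinc finger factor that promotes fat cell differentiation and is known as a target of glucocorticoid hormone, fell with the antibody. It also lies on chromosome 6 (90462576 to 90475238, plus strand). High-fat antibody libraries had 2313, 1477, 1722 and 1823 normalized counts, against 3231, 2535, 2653 and 2488 in high-fat untreated libraries. Control-diet antibody libraries had 1799, 2136, 2685 and 2067, and control-diet untreated libraries 2851, 3151, 3058 and 3336. Within each diet every antibody library was below every untreated one. Across diets the control-diet antibody library 3, at 2685, was above 3 of the high-fat untreated libraries. Group means were 1834 ± 351 with antibody and 2727 ± 343 untreated on the high-fat diet, and 2172 ± 372 with antibody and 3099 ± 202 untreated on the control diet (SD, n = 4 each). Averaged over both diets Klf15 fell by 0.55 ± 0.096 on the log2 scale (SE; 1.47-fold lower; adjusted p = 0.00843, limma). The log2 difference was -0.58 ± 0.14 on the high-fat diet (adjusted p = 0.0905) and -0.53 ± 0.14 on the control diet (adjusted p = 0.139). High-fat feeding gave -0.22 ± 0.10 over both antibody states, which did not pass (adjusted p = 0.114).

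The core pair did not pass in any comparison. Cebpa, the most abundant of the 10, had 20216, 16930, 17421 and 17754 normalized counts in the high-fat antibody libraries, against 17845, 12687, 15833 and 12296 in the high-fat untreated libraries. On the control diet its levels were 16501, 18379, 19370 and 19672 with antibody and 13459, 16351, 16544 and 18457 untreated. Antibody and untreated libraries overlapped on both diets, although the antibody means were higher, and the averaged log2 difference was 0.26 ± 0.089 (adjusted p = 0.149). Pparg, the nuclear receptor required for fat cells to form, had 7625, 8437, 7483 and 4684 in the high-fat antibody libraries, against 6959, 4336, 3474 and 5924 in the high-fat untreated libraries. Its control-diet levels were 7922, 8404, 5278 and 8163 with antibody and 5839, 5470, 9341 and 9112 untreated. Pparg varied widely within every group, with a coefficient of variation between 19.6% and 30.2%, and all groups overlapped. The log2 difference between antibody and untreated libraries was 0.47 ± 0.25 on the high-fat diet (adjusted p = 0.449) and 0.02 ± 0.25 on the control diet (adjusted p = 0.988). Without antibody, Pparg averaged 5173 ± 1564 on the high-fat diet and 7441 ± 2070 on the control diet (SD, n = 4 each), a log2 difference of -0.53 ± 0.25 that did not pass (adjusted p = 0.167). With antibody the diet difference was -0.09 ± 0.25 (adjusted p = 0.887), and the interaction of diet and antibody was 0.45 ± 0.35 (adjusted p = 0.87).

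The early C/EBP genes spread widely in some groups, with coefficients of variation of 21% to 57.9% for Cebpb and 32.8% to 53% for Cebpd. Cebpb, which hormones and cAMP induce at the start of differentiation in culture, had 832, 461, 279 and 329 normalized counts in the high-fat antibody libraries, against 472, 285, 425 and 320 in the high-fat untreated libraries. In control-diet antibody libraries it had 427, 622, 666 and 721, and in control-diet untreated libraries 216, 363, 918 and 676. The control-diet untreated libraries spanned 216 to 918, wider than the other groups together. The averaged antibody difference was 0.29 ± 0.28 on the log2 scale (adjusted p = 0.682). Cebpd had 334, 208, 141.5 and 171 in the high-fat antibody libraries, against 274, 311, 469 and 613 in the high-fat untreated libraries. Its control-diet levels were 113.5, 301, 516 and 498 with antibody and 462, 230, 355 and 252 untreated. On the high-fat diet 3 of the 4 antibody libraries were below all 4 untreated ones, and the log2 difference was -0.96 ± 0.43 (unadjusted p = 0.0396, adjusted p = 0.338, limma). On the control diet it was -0.03 ± 0.43 (adjusted p = 0.989), and the interaction, -0.93 ± 0.60, did not pass (adjusted p = 0.87).

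Stat5a encodes a signal transducer of growth hormone and prolactin that promotes fat cell differentiation. Its levels were 2626, 2312, 2355 and 2700 normalized counts in high-fat antibody libraries, against 2332, 1697, 1990 and 1952 in high-fat untreated libraries. The control diet gave 2436, 2305, 2137 and 2388 with antibody and 1773, 1829, 2197 and 2256 untreated. Untreated library 1 of the high-fat diet and untreated libraries 3 and 4 of the control diet reached into the antibody range, and the others lay below it. The averaged antibody difference was 0.27 ± 0.071 on the log2 scale and missed the threshold (adjusted p = 0.0584, limma). It passed in 5 of 27 alternative settings, among them quantile normalization (adjusted p = 0.0397) and scaling to a common library total (adjusted p = 0.0247). Leaving out high-fat untreated library 1 (adjusted p = 0.0232) or control-diet untreated library 3 (0.0471) or 4 (0.0442) also brought it past.

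Of the lineage factors, Zfp423 (chromosome 8, 87661810 to 87959595, minus strand) was the gene that passed for diet. High-fat antibody libraries had 1205, 1590, 1912 and 1146 normalized counts, against 900, 851, 1001 and 1439 in control-diet antibody libraries. Untreated libraries had 1404, 1347, 1038 and 1397 on the high-fat diet and 1300, 1097, 897 and 747 on the control diet. High-fat and control libraries overlapped in both antibody states, with control-diet antibody library 4 and control-diet untreated libraries 1 and 2 inside the high-fat range. Averaged over both antibody states Zfp423 rose on the high-fat diet by 0.43 ± 0.14 on the log2 scale (1.35-fold; adjusted p = 0.0481, limma). This was 1 of the 10 genes, in a comparison that 19.4% of all genes passed (2757 genes), and the call held in 12 of 27 alternative settings with the highest adjusted p at 0.119. Within the antibody states the log2 difference was 0.48 ± 0.20 with antibody (adjusted p = 0.231) and 0.38 ± 0.20 without (adjusted p = 0.22).

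Ebf1 varied little within groups, with coefficients of variation of 3.97% to 9.89%. This factor, which is expressed through the fat lineage, had 3813, 3937, 4123 and 4148 normalized counts in high-fat antibody libraries, against 3109, 3645, 3928 and 3407 in control-diet antibody libraries. Untreated, it had 3995, 4043, 4470 and 3876 on the high-fat diet and 4116, 3815, 4087 and 3425 on the control diet. The averaged diet difference of 0.14 ± 0.056 on the log2 scale was small and did not pass (adjusted p = 0.0922), though it did once libraries were scaled to a common total (0.22, adjusted p = 0.0216). That scaling also moved the median of all genes from 0.02 to 0.11, and 3838 genes then passed. Ebf2, a factor selective for brown and beige fat, had 1715, 1699, 1554 and 1884 in high-fat antibody libraries, against 1687, 1589, 1707 and 1794 in high-fat untreated libraries. Its control-diet levels were 1633, 1696, 1835 and 1678 with antibody and 1958, 1353, 1472 and 1265 untreated. Antibody and untreated libraries overlapped on both diets, and the averaged antibody difference was 0.11 ± 0.076 (adjusted p = 0.541). Without control-diet untreated library 1, the highest of its group at 1958, the diet difference of Ebf2 among untreated libraries was 0.31 and passed (adjusted p = 0.0083), against 0.18 ± 0.11 with it (adjusted p = 0.26). The coefficient of variation of Ebf2 was 20.4% in the control-diet untreated group and 4.96% to 7.9% in the others.

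Within a single antibody state none of the 10 genes passed for diet, either among antibody libraries, where 0.00705% of all genes did (1 gene), or among untreated libraries, where 8.15% did (1157 genes). Nor did high-fat and control libraries separate without overlap for any of them, which happened for 15.5% of all genes among antibody and 9.73% among untreated libraries. At an unadjusted p under 0.05 the counts were 2 of 10 (Zfp423 and Ebf1) among antibody and 0 of 10 among untreated libraries, where 18.1% and 30.3% of all genes did so. The interaction of diet and antibody passed for none of the 10 and for 0% of all genes by limma. At an unadjusted p under 0.05 it held for none of the 10 and for 877 of all genes. For Zfp467 and Klf15 the antibody effect on the high-fat diet differed from that on the control diet by 0.13 ± 0.28 and -0.06 ± 0.19, both less than the error.

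**Figure D3:**
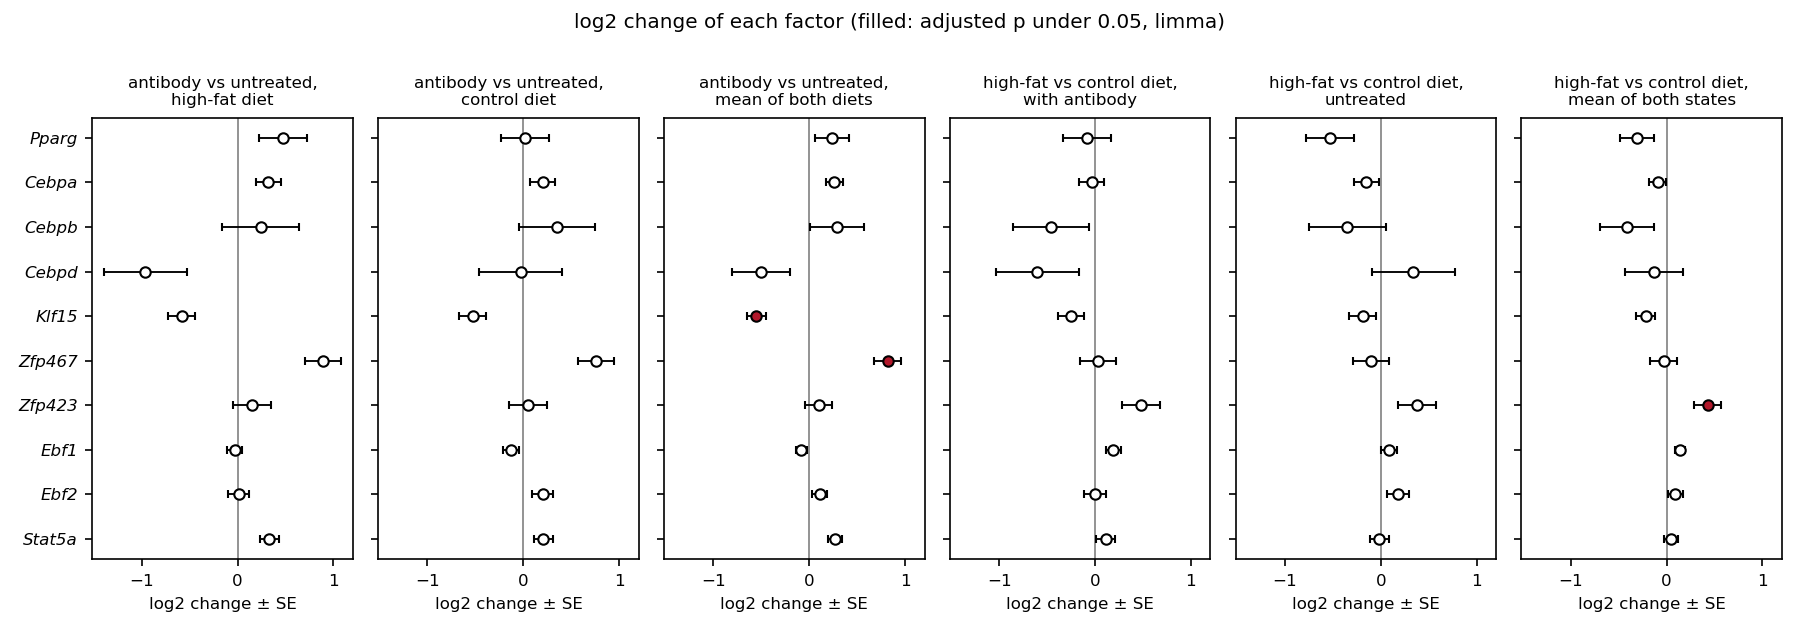
Log2 change ± SE of each transcription factor for the antibody on each diet and averaged, and for the high-fat diet in each antibody state and averaged. Filled points pass an adjusted p of 0.05 (limma) and are Zfp467 at 0.82, Klf15 at -0.55 and, for diet, Zfp423 at 0.43.

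Among each other, the genes paired unevenly over the 16 libraries, which share group and scaling, so correlations are given as a description. After subtraction of group means, Cebpa followed Klf15 and Cebpb (both r = 0.723), Stat5a (0.662) and Zfp467 (0.602). Pparg followed Zfp467 (0.665) but not Cebpa (0.207), and ran against Ebf1 (-0.552). Zfp467 and Klf15, whose antibody changes had opposite signs, were at r = 0.428 within groups.

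The gene most alike to each factor was found by Pearson's r of log2 values over all 16 libraries. Zfp467 was closest to Hlf, a leucine zipper factor of the circadian clock output (r = 0.952, rho = 0.862, 0.928 without the 2 farthest libraries and 0.902 within groups), followed by Rasl12 (0.951) and by Dbp, a factor of the same family as Hlf (0.94). Klf15 was closest to Pias4 (0.876, rho = 0.85, 0.787 without the 2 farthest, 0.871 within groups) and Stat5a to Chd4, a chromatin remodeller (0.929, rho = 0.924, 0.88 and 0.882). Chd4 itself rose with the antibody by 0.37 ± 0.064 over both diets (adjusted p = 0.0084). Zfp423 was closest to Atp2b4, a calcium pump of the plasma membrane (0.949, rho = 0.932, 0.904 and 0.924), which rose on the high-fat diet by 0.42 ± 0.12 (adjusted p = 0.0278). The closest genes of the others were Fam241a for Pparg (0.919), Nr2f6 for Cebpb (0.913), B9d2 for Cebpa (0.889), Epc2 for Ebf1 (0.883), Rab36 for Ebf2 (0.87) and Plekhf1 for Cebpd (0.834).

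Because 2 of the 3 genes most like Zfp467, Hlf and Dbp, belong to the clock output, 18 clock genes were set beside the antibody result after these values had been seen. Hlf had 1330, 1216, 1070 and 1275 normalized counts in high-fat antibody libraries, against 885, 574, 341 and 512 in high-fat untreated libraries. On the control diet it had 1376, 1358, 1329 and 1675 with antibody and 271, 293, 924 and 888 untreated. As with Zfp467, the 8 antibody libraries lay above the 8 untreated ones. Of the 18 clock genes, 6 rose and 4 fell with the antibody over both diets, in a comparison that 2.52% of all genes passed. Among them were Per3 at 1.07 ± 0.12 (adjusted p = 0.00132, limma), Tef at 0.83 ± 0.13 (0.00655), Clock at -0.47 ± 0.076 (0.00676) and Arntl at -1.26 ± 0.28 (0.0309). A score of 7 clock genes (Nr1d1, Nr1d2, Per3, Ciart and Tef, less Arntl and Npas2, in log2 units, leaving out Hlf and Dbp) was 6.03 to 6.53 in antibody libraries and 4.82 to 6.05 in untreated ones. With that score in the model, the antibody difference of Zfp467 was 0.26 ± 0.14 (adjusted p = 0.318) and that of Klf15 -0.64 ± 0.16 (adjusted p = 0.119). With Hlf and Dbp in the score the values were 0.20 ± 0.12 (adjusted p = 0.374) and -0.67 ± 0.16 (adjusted p = 0.112). The estimate of Zfp467 shrank while that of Klf15 kept its size with a wider error, and neither passed. Clock gene state and antibody move together across these libraries, and their parts in the values of Zfp467 and Klf15 cannot be told apart.

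**Figure D4:**
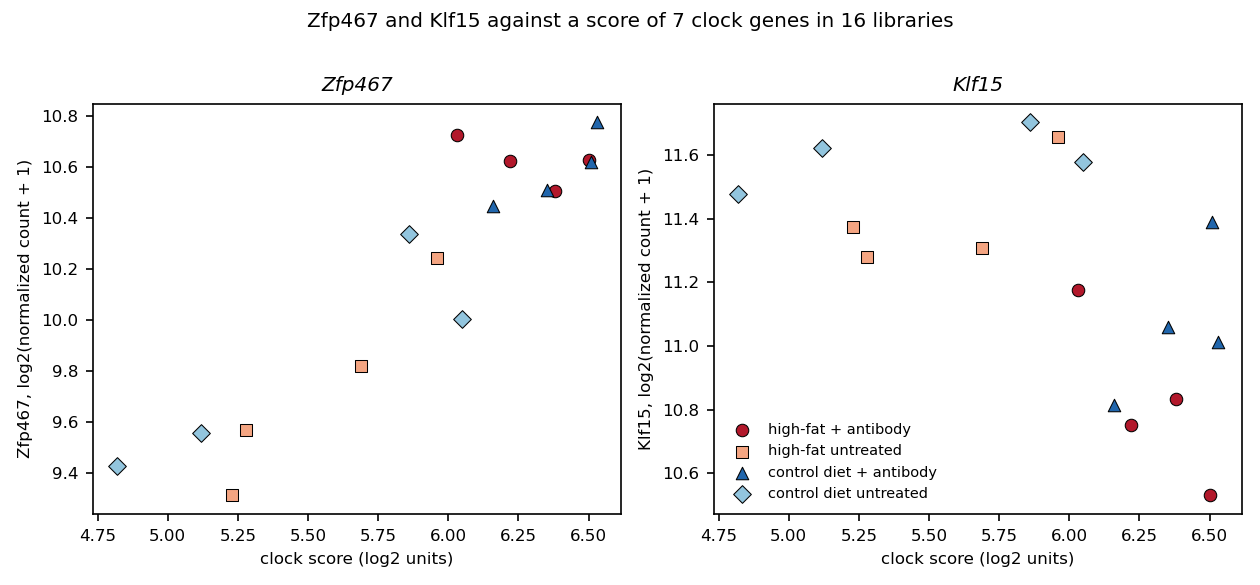
Log2 normalized counts of Zfp467 and Klf15 against the score of 7 clock genes, 1 point per library. Antibody libraries sit at scores of 6.03 to 6.53 and untreated ones at 4.82 to 6.05. Within each diet Zfp467 is higher and Klf15 lower in the antibody libraries. Among high-fat untreated libraries Klf15 was at 3231 normalized counts at the highest score, 5.96, and at 2653 at the lowest, 5.23. Among control-diet untreated libraries it was at 3058 at the highest score, 6.05, and at 2851 at the lowest, 4.82.

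The tissue label was checked against markers. All 5 fat cell markers were present in every library, and their sum ranged over 258144 to 316172 normalized counts in high-fat antibody, 250736 to 282926 in high-fat untreated, 234471 to 292276 in control-diet antibody and 238707 to 274223 in control-diet untreated libraries. Sums of 10 progenitor markers overlapped between antibody and untreated libraries on both diets. They were 143616 to 217823 on the high-fat and 84204 to 200249 on the control diet. In the averaged diet comparison, which 19.4% of all genes passed, 10 of 10 were higher on the high-fat diet. Their median was 0.27, with 1 past the threshold. Macrophage markers (5 of 5 higher, median 0.28, 1 past) and endothelial markers (5 of 5 higher, median 0.18, 1 past) moved the same way. Of the fat cell markers 3 of 5 were higher, and of the muscle, blood and tested lymphocyte markers 0 of 7, 0 of 4 and 0 of 2. The part of these cell types in the diet difference of Zfp423 was not tested. The sum of 7 skeletal muscle markers varied most, from 1167 to 8853 in high-fat antibody and 6272 to 470579 in high-fat untreated libraries, and from 27454 to 157935 in control-diet antibody and 1330 to 28750 in control-diet untreated libraries. The median muscle sum was thus lower with antibody on the high-fat diet (2069 against 19655) and higher with antibody on the control diet (131121 against 13590). With the muscle markers in the model the antibody difference of Zfp467 was 0.77 ± 0.12 (adjusted p = 0.00821) and that of Klf15 -0.59 ± 0.082 (adjusted p = 0.00422). Mammary and skin epithelium markers were not used here, since 0 of 4 were matched in the table.

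Other regulators and targets of the same cascade were read from lists chosen for their role, against the 2.52% of all genes that passed for the averaged antibody effect. Of 16 other factors that promote fat cell formation, 2 rose with the antibody over both diets, the sterol regulator Srebf1 (0.80 ± 0.18, adjusted p = 0.0324) and the glucocorticoid receptor Nr3c1 (0.20 ± 0.039, adjusted p = 0.016). The medians were -0.01 for this list and -0.01 for all genes. Of 16 tested factors that oppose it, 2 rose as well, the orphan receptor Nr2f2 (0.43 ± 0.074, adjusted p = 0.00843) and the helix-loop-helix inhibitor Id3 (0.67 ± 0.17, adjusted p = 0.0452). Of 12 beige and brown fat genes 1 passed, Prdm16, a zinc finger factor of that fate, which rose (0.68 ± 0.17, adjusted p = 0.0472, limma). All 12 had positive log2 differences over both diets, with a median of 0.27. On the high-fat diet 11 were higher and 1 lower (median 0.58), and on the control diet 7 were higher and 5 lower (median 0.05). None of 20 PPARγ and C/EBPα targets passed for the antibody. Those with the smallest p were the hormone genes Retn (-0.24 ± 0.094, adjusted p = 0.195) and Lep (0.67 ± 0.26, adjusted p = 0.199), and the list's median was 0.03.

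A list of 12 glucocorticoid-responsive genes is given beside Klf15, which belongs to that class. Over both diets 2 of the 12 passed and fell with the antibody, where 2.52% of all genes passed. These were Zbtb16, by 1.77 ± 0.19 (adjusted p = 0.000764, limma), and Cdkn1a, by 1.39 ± 0.18 (adjusted p = 0.00247). The list median was -0.39. On the high-fat diet all 12 had negative log2 differences with a median of -0.85. On the control diet 8 were positive and 4 negative, and the median was 0.09. Among the negative ones were Zbtb16 (-1.30 ± 0.27) and Cdkn1a (-1.23 ± 0.25), which did not pass there (adjusted p = 0.0771 each, limma). Klf15, at -0.58 and -0.53, was lower by nearly the same amount on both diets. By diet over both antibody states 1 of the 12 passed, in a comparison that 19.4% of all genes passed. It was Glul, which fell by 0.34 ± 0.11 (adjusted p = 0.0425, limma). The part of hormone state in the fall of Klf15 was not tested.

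For the high-fat diet averaged over both antibody states, 4 of the 16 promoting factors passed, in a comparison that 19.4% of all genes passed. Zeb1 rose (0.26 ± 0.046, adjusted p = 0.00554), and the lipogenic regulators Srebf1 (-0.59 ± 0.18, adjusted p = 0.0345) and Mlxipl (-0.58 ± 0.19, adjusted p = 0.0454) and the coactivator Ppargc1b (-0.66 ± 0.21, adjusted p = 0.0424) fell. Of the 16 opposing factors Klf3 (0.24 ± 0.055, adjusted p = 0.0122) and Klf7 (0.33 ± 0.090, adjusted p = 0.0216) rose. Of the 20 targets of PPARγ and C/EBPα, 2 rose and 3 fell, among them the lipid droplet gene Plin4 (0.58 ± 0.12, adjusted p = 0.00907), Angptl4 (0.80 ± 0.20, adjusted p = 0.0163), the glucose transporter gene Slc2a4 (-0.67 ± 0.11, adjusted p = 0.00498) and the triglyceride synthesis gene Agpat2 (-0.83 ± 0.22, adjusted p = 0.0206). Pparg and Cebpa themselves were at -0.31 ± 0.18 (adjusted p = 0.216) and -0.09 ± 0.089 (adjusted p = 0.469). Of the 12 beige and brown fat genes 4 fell, Kcnk3 (adjusted p = 0.0141), Esrrg (-1.47 ± 0.40), Cidea (-2.77 ± 0.78) and Cox8b (-1.31 ± 0.44), beside Ebf2 at 0.09 ± 0.076 (adjusted p = 0.393). How many genes passed in each direction for diet depended on scaling: 1175 higher and 1582 lower as deposited, and 2737 higher and 1101 lower after scaling to a common library total, where the median of all genes was 0.11.

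Within single groups fewer genes of these lists passed. Of all genes, 8.15% passed for diet among untreated libraries and 0.0775% for the antibody on the high-fat diet. Among untreated libraries the high-fat diet raised the promoting factors Zeb1 (0.35 ± 0.066, adjusted p = 0.0167) and Tle3 (0.67 ± 0.19, adjusted p = 0.0467), the opposing factor Klf3 (0.29 ± 0.078, adjusted p = 0.0414) and the hormone-responsive Mt2 (2.27 ± 0.59, adjusted p = 0.039) and Fkbp5 (1.07 ± 0.30, adjusted p = 0.046). Lower were the targets Slc2a4 (-0.77 ± 0.16, adjusted p = 0.0242) and Agpat2 (-1.25 ± 0.31, adjusted p = 0.0362) and the beige fat genes Esrrg (-2.47 ± 0.57, adjusted p = 0.0299) and Kcnk3 (-1.20 ± 0.34, adjusted p = 0.046). On the high-fat diet the antibody lowered Zbtb16 (-2.24 ± 0.27, adjusted p = 0.00623) and Cdkn1a (-1.54 ± 0.25, adjusted p = 0.0352), beside Klf15 at -0.58 ± 0.14 (adjusted p = 0.0905). Apart from the clock genes, of which Per3 passed for the antibody on the control diet (1.30 ± 0.17, adjusted p = 0.0125), no gene of these lists passed for the antibody on the control diet, for diet among antibody libraries or for the interaction. Outside the clock and cell marker lists the smallest adjusted p was 0.0771 on the control diet (Cdkn1a and Zbtb16) and 0.113 for diet among antibody libraries (Slc2a4). Of the skeletal muscle markers, Mylpf was nearer the threshold for diet among antibody libraries (adjusted p = 0.0859, limma).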

How the data were processed

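Poly-A RNA from 16 libraries, 4 per group, was prepared as stranded libraries and each was sequenced on 2 lanes, per the labels. The submitters' processing notes name limma 3.42.2, Subread 1.6.2, STAR 2.7.0e, fastp 0.20.1 and featureCounts, without role or order, and the builds mm10 and GRCm38. The deposited values are a linear signal per gene that the authors call normalized counts. How they were normalized is not given in the sources used here. Library totals lay between 24020606 and 28149991 normalized counts. The values are not whole, and no count model was run.

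Values were converted to log2(value + 1), which understates changes of low genes. Genes above 24.49, which stands for 1 CPM at the median library total, in at least 4 libraries were tested (14189, with 1902 left out). A mean per group was fitted over all 16 libraries in R 4.3.3, using limma 3.58.1 and a variance trend (12 residual and 3.07 prior degrees of freedom), two-sided, adjusted by Benjamini and Hochberg within each comparison. The fit was tested on simulated data. Exonic lengths come from GENCODE vM21 (GRCm38) and promoters from RefSeq.

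All 10 transcription factors are named in every comparison. Of the other lists, genes past the threshold are named (at most the 4 with the smallest p) and, for some lists where none passed, those with the smallest p, and the most alike gene of each factor. The added clock genes do not follow this rule, and only some of those that passed are named. The genes and lists were chosen with earlier results of these data known, and the clock genes and scores were added after seeing the values given here. Alternatives were another pseudocount, filter, scaling or variance model, fewer groups, a replicate block, each library left out, and muscle or clock scores as covariates.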

Additional observations from a re-analysis of the deposited data

Results flagged for a closer look

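Among the 40 sets of 4 libraries examined (10 genes in 4 groups), 2 held a library far from the other 3, by the gap to the nearest library relative to the range of the set (Dixon's 95% critical value). Chance alone marks about 1 in 20 sets, which is 2 of 40. Pparg was at 5278 normalized counts in control-diet antibody library 3, against 7922, 8404 and 8163 in the others of its group. Without that library the control-diet antibody difference of Pparg stayed short of the threshold. Zfp423 was at 1038 in high-fat untreated library 3, against 1404, 1347 and 1397 in the others of its group. Without that library the averaged diet call of Zfp423 held, as it did in only 5 of the 16 fits that leave out a library (highest adjusted p 0.0985, limma).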

How the results depend on the processing

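The mean antibody calls of Zfp467 and Klf15 held in 25 of 27 alternatives, with log2 values of 0.75 to 0.91 for Zfp467 and -0.61 to -0.51 for Klf15 over the 16 fits that leave out a library (highest adjusted p 0.0218 and 0.0237). With either clock score as a covariate 0 of the 10 genes passed for the mean antibody effect and 1 for the mean diet effect, and Pparg (-0.27 and -0.20) and Cebpb (-0.68 and -0.57) turned negative for the antibody without having passed in either direction. All genes past the threshold then numbered 16 (13 without Hlf and Dbp) for the mean antibody effect, 1 (2) for the antibody on the high-fat diet, 28 (20) on the control diet, 116 (1) for diet with antibody, 2991 (3055) without it and 3374 (3555) for the mean diet effect. The muscle score gave 0 and 4 for the antibody on the high-fat and control diet, 0 and 91 for diet with and without antibody, and 2 of the 10 genes (Zfp423 and Klf15) for the mean diet effect. A common library total gave 4 genes for diet with antibody and 2 of the 10 for the mean diet effect (Zfp423 and Ebf1). Without a filter on low genes, or without a variance trend, 0 of the 10 passed for the mean diet effect. The missing filter gave 2 genes for diet with antibody. The missing trend gave 3 for the antibody on the control diet and 726 for diet without antibody. With only the compared groups in the fit the counts were 4 and 0 for the antibody on the high-fat and control diet, and 641 and 0 for diet with and without antibody. That fit was not run for the averaged effects or the interaction, which use all groups. Without high-fat untreated library 2 and control-diet untreated library 3 together, 298 genes passed for diet with antibody, 0 without it and 1562 (0 of the 10) for the mean diet effect.

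Replicate numbers recur in every group, but same-numbered libraries did not deviate together for every number: r ran from -0.54 to 0.49 over 24 pairs (median 0.03) and 10 exceeded 0.1, among them all pairs of libraries numbered 2, and 6 of 16 libraries were closest to their own number. With a replicate block 2 genes passed for the antibody on each diet, 123 for its mean effect, 0 for diet with and without antibody, 1498 for the mean diet effect and 1 for the interaction. Zfp467 (adjusted p = 0.033) and Klf15 (adjusted p = 0.0338) held in the block fit, while 0 of the 10 genes passed for the mean diet effect.

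Leaving out a library gave 1 to 271 genes for the antibody on the high-fat diet (0 to 2 of the 10), 0 to 86 on the control diet, 144 to 533 for its mean effect, 0 to 239 for diet with antibody, 0 to 4119 without it (0 to 1 of the 10), 1593 to 4721 for the mean diet effect (0 to 2 of the 10) and 0 to 1 for the interaction. The 4119 came without control-diet untreated library 1, the 271 without high-fat untreated library 1, and the 0 for diet without antibody without high-fat or control-diet untreated library 4. The cause was not tested in any of these cases. The read depth is unknown, so counting error was not estimated.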
